A study of Mus musculus with 46 samples.

Results

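The earliest hearts of this series, taken 1 week after tamoxifen, were compared between mice whose Lmna gene could be deleted in cardiomyocytes and mice whose Lmna gene could not. The members are the 9 libraries that the labels give as 1 week, of 46 in the series: 4 Lmna F/F (both alleles floxed) and 5 Lmna +/+ (both alleles wild type). Both groups carried Myh6MCM, a tamoxifen-dependent Cre recombinase driven by the cardiomyocyte promoter of Myh6, as Tg/0, and both received tamoxifen, so the control group shares the transgene and the drug. Tamoxifen in corn oil was injected at 6 to 8 weeks of age, as 100 µL of 4 mg/mL on each of 4 days in a row. The hearts were washed through with KCl at 100 mM, and poly(A) RNA was made into strand-specific NEBNext libraries and read as single ends of 50 bases, all in the sequencing pool KIUC030. The F/F libraries came from 1 female and 3 males and the +/+ libraries from 2 females and 3 males. The sources used here do not name the floxed exons. Each library has a title with a number of its own, but no label calls that number a mouse. The spread behind every p-value is therefore given as that between libraries.

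Lmna encodes lamins A and C, which polymerise with the B-type lamins into the lamina under the inner nuclear membrane. The lamina carries membrane proteins such as emerin and ties the nucleus to the cytoskeleton through SUN and nesprin proteins, which matters in a cell that contracts without rest. Loss of A-type lamins weakens the nuclear envelope, and cardiomyopathy is the best known disease of the heart caused by LMNA mutations. The comparison at 1 week asks which transcripts of the heart already differed at the first time sampled after the deletion was induced.

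Total counts were 13356710 to 18397844 reads per F/F library and 8477358 to 21014336 per +/+ library. Levels below are normalised CPM (reads scaled to a common library size, after TMM scaling of the library total), differences are fitted log2 fold changes of F/F over +/+ with their SE, and a gene is called at an adjusted p under 0.05 in edgeR's quasi-likelihood test. Mitochondrially encoded mRNAs took 20.5 ± 5.41% of F/F reads and 24.6 ± 2.78% of +/+ reads (SD), with overlapping ranges. The labelled tissue, adult heart, was checked against its markers: the 11 ventricular cardiomyocyte markers, among them Myh6 and Tnni3, summed to 121950.0 to 151373 CPM in F/F and 133190.0 to 170734 in +/+. The libraries are bulk heart tissue, in which fewer cells of a type and less RNA per cell cannot be told apart.

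Lmna was examined first. It stood at 33.6, 35.6, 27.0 and 36.9 CPM in the 4 F/F libraries and at 67.7, 45.0, 66.8, 59.2 and 56.3 in the 5 +/+ libraries. Every F/F library lay below every +/+ library, and the means were 33.3 ± 4.38 (SD, n = 4) and 59.0 ± 9.22 (SD, n = 5; exact two-sided permutation p = 0.0159). In the fit across all genes the log2 fold change was -0.82 ± 0.22, which did not pass the adjustment over all genes (edgeR adjusted p = 0.315), and at 2 weeks it was -0.46 ± 0.21 (edgeR adjusted p = 0.0983). Reads from cells other than cardiomyocytes, which keep Lmna, and reads outside a deleted part would both count here, and their shares were not tested. Cgas encodes the cytosolic DNA sensor that other groups of the series lack, and no Cgas allele is labelled for these mice. It was low: 0.387, 0.404, 0.333 and 0.354 CPM in F/F and 0.9747, 0.297, 0.684, 0.558 and 0.459 in +/+. The groups overlapped (log2 fold change -0.65 ± 0.41, edgeR adjusted p = 0.603). At 2 weeks it was 1.48 ± 0.30 (edgeR adjusted p = 0.000750), and the difference between the times passed the test (edgeR adjusted p = 0.00961). Esr1 reads were very high, at 3209.8 to 6312 CPM in F/F and 3016 to 8445 in +/+. The MerCreMer transgene holds parts of the mouse oestrogen receptor, so transgene and gene cannot be told apart, and the log2 fold change was -0.090 ± 0.39 (edgeR adjusted p = 0.957).

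At 1 week the 2 genotypes differed at 4 of 15627 genes tested (0.0256%), with 1 higher and 3 lower in F/F hearts. Without adjustment 1539 genes had a p under 0.05 in the same fit, 918 with a positive and 621 with a negative log2 fold change. The libraries of the 2 groups did not overlap at 265 genes higher in F/F (1.7%) and at 161 lower (1.03%). The median log2 fold change was -0.0048 over all genes and the median SE 0.23, and for 10937 genes (70.0%) the 95% interval lay within a 2-fold change in either direction. For the remaining genes the interval reached beyond a 2-fold change. The number of calls depended on the processing. DESeq2 called 20 genes and edgeR without a filter on low counts called 109. Leaving out +/+ replicate 1 gave 9 calls, and fitting the 9 libraries of 1 week alone gave 2.

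**Figure D1:**
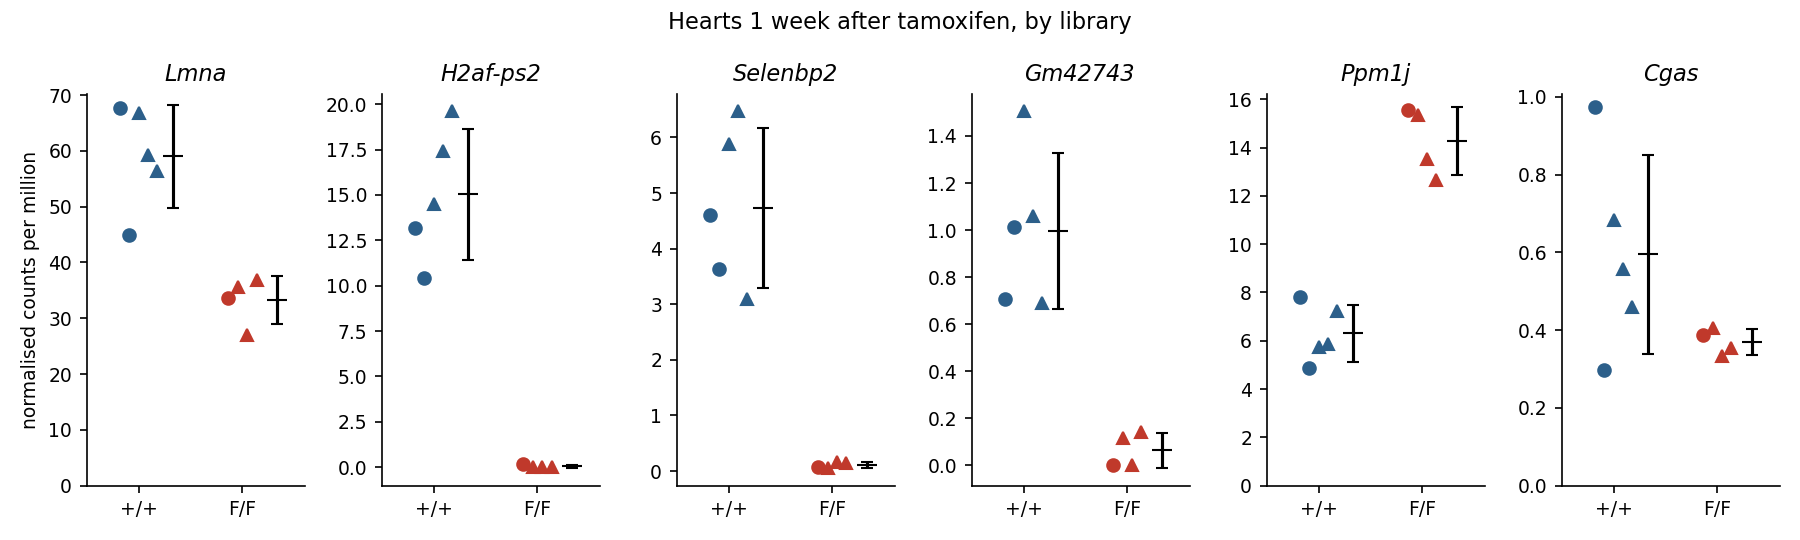
Levels of Lmna, the 4 called genes and Cgas by library at 1 week, in normalised CPM, with the genotype on the x axis (blue, +/+, n = 5; red, F/F, n = 4; circles female, triangles male; bar, mean ± SD). The F/F libraries of Lmna sit between 27.0 and 36.9, all below the +/+ libraries, and Cgas overlaps.

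The called genes were a histone H2A pseudogene, a selenium-binding protein gene, an unnamed gene model and a phosphatase gene. H2af-ps2, annotated as a pseudogene of histone H2A, stood at 0.155, 0, 0 and 0 CPM in F/F and at 13.2, 10.4, 14.5, 17.4 and 19.6 in +/+. It was nearly absent from all 4 F/F libraries and present in all 5 +/+ libraries. Summed over libraries, its reads were 459 times lower (95% counting interval 127 to 3795, 2 reads in 4 F/F libraries against 913 in 5 +/+ libraries), and the fitted log2 fold change was -8.62 ± 0.40 (edgeR adjusted p = 2.03e-13). Both F/F reads came from F/F replicate 1, and without it the fitted value was -11.25, which rests on 0 reads in F/F and is no bound.

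Selenbp2, a selenium-binding protein gene known from liver, stood at 0.0775, 0.0578, 0.166 and 0.142 CPM in F/F and at 4.61, 3.63, 5.88, 6.47 and 3.10 in +/+. No F/F library came near the lowest +/+ library. Selenbp2 was 42.9 times lower (95% counting interval 20.6 to 108, 7 reads in 4 F/F libraries against 299 in 5 +/+ libraries). The fitted value was -5.32 ± 0.45 on the log2 scale (edgeR adjusted p = 6.54e-08). Gm42743, a gene model without a functional name, was low everywhere: 0, 0.116, 0 and 0.142 CPM in F/F against 0.709, 1.01, 1.505, 1.06 and 0.688 in +/+. It had no read in 2 F/F libraries and 2 reads in each of the others. It was 15.3 times lower (95% counting interval 5.69 to 58.1, 4 reads in 4 F/F libraries against 61 in 5 +/+ libraries). The fitted value was -3.96 ± 0.68 on the log2 scale (edgeR adjusted p = 0.0363). Its call was the least firm, since it was lost in 7 of the 9 fits that left out a library and remained without +/+ replicate 1 or +/+ replicate 5.

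Ppm1j, a gene of the PP2C family of protein phosphatases, was the called gene that was higher. It stood at 15.6, 15.4, 13.5 and 12.7 CPM in F/F and at 7.80, 4.88, 5.75, 5.86 and 7.22 in +/+. The lowest F/F library exceeded the highest +/+ library, and the means were 14.3 ± 1.41 (SD, n = 4) and 6.30 ± 1.19 (SD, n = 5). The fitted log2 fold change was 1.20 ± 0.16 (edgeR adjusted p = 0.000537). It kept its call without any 1 library, but not in the edgeR fit of the 9 libraries of 1 week alone (adjusted p = 0.0799) or of the 6 males (adjusted p = 0.134). By the exact two-sided permutation test each of the 4 genes gave p = 0.00794, the smallest that 4 libraries against 5 allow. Adjusted over the named genes, that permutation p was 0.0624. The 4 genes had been picked by their values in these same libraries, so this p is no separate support for them. Uncalled genes such as Unc45a and Setdb1 gave the same permutation p.

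Selenbp2 and H2af-ps2 have near-identical copies elsewhere, so a read can belong to either. The coding sequences of Selenbp2 and Selenbp1 in GENCODE M21 (GRCm38), 1416 bases each, differ at 18 positions (98.7% identical) and share a run of 193 bases. The stretch of 60 bases with the most differences, from base 390 to base 449 of the coding sequence, is shown to mark where the pair can be told apart. Capitals mark the bases that differ.
Selenbp2: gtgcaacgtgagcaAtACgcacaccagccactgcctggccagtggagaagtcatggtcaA
Selenbp1: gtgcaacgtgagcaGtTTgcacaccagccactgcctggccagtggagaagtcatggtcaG
H2af-ps2, listed as Hist1h2al in that release, is matched over its 339 bases by H2ac18, an H2A gene of chromosome 3, with 2 differences (99.4% identical). A stretch of 60 bases that holds one of them, from base 61 to base 120 of the transcript, is shown in the same way.
H2af-ps2: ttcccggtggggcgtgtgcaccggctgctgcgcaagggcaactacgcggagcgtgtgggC
H2ac18: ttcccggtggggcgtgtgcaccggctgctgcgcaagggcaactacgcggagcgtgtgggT

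Of all windows of 50 bases in its annotated transcripts, the read length used here, H2af-ps2 shares 67.6% (196 of 290) with another gene and Selenbp2 43.9% (1114 of 2536, all with Selenbp1). Gm42743 shares 14.3% (209 of 1462) and Ppm1j 0 of 1761. Selenbp1 itself stood at 57.7, 70.2, 75.8 and 73.5 CPM in F/F and 57.8, 65.5, 60.3, 69.7 and 55.2 in +/+, overlapping (log2 fold change 0.19 ± 0.18, edgeR adjusted p = 0.741). H2ac18 and H2ac19, which share 190 windows with H2af-ps2, had 0 reads in all 9 libraries, which per group allows up to 3 reads. The sources used here do not say how the authors assigned reads that match several copies, and the part this plays in the low values was not tested.

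The 4 genes were then followed in the other groups of the series. At 2 weeks, with its own 5 F/F and 7 +/+ libraries, 2537 genes were higher (16.2%) and 2025 lower (13%) in F/F. There the reads of H2af-ps2 were 149.97 times lower (95% counting interval 72.5 to 374, 7 reads in 5 F/F libraries against 1014 in 7 +/+ libraries), and Selenbp2 was 38.1 times lower (95% counting interval 19.8 to 84.0, 9 reads in 5 F/F libraries against 331 in 7 +/+ libraries). Gm42743 had 0 reads in 5 F/F libraries against 72 in 7 +/+ libraries, at least 24.8-fold lower against a floor of 3 reads over the group. For these 3 genes the difference between the effects at 1 and 2 weeks did not pass the test (edgeR adjusted p = 0.432, 0.941 and 0.120). Ppm1j did differ between the weeks: its log2 fold change at 2 weeks was -0.14 ± 0.14 (edgeR adjusted p = 0.492), and the difference of the effects passed (edgeR adjusted p = 0.00142). At 2 weeks Ppm1j ran from 10.5 to 11.9 CPM in F/F and from 9.88 to 15.8 in +/+, so that the +/+ libraries of 1 week, at 4.88 to 7.80, lay below all NEBNext libraries of the other times. Time and sequencing pool cannot be told apart in these levels.

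In the hearts of 11 days the same edgeR fit called 0 genes (1302 with an unadjusted p under 0.05). Of the 3 genes that were low at 1 week, H2af-ps2 and Selenbp2 were present in the 2 libraries labelled F/F. These libraries held H2af-ps2 at 19.0 and 21.01 CPM against 22.4, 23.9 and 23.9 in 3 +/+ libraries. Selenbp2 stood at 2.75 and 4.45 CPM in them against 4.09, 4.34 and 5.28. Gm42743 stood at 0.122 and 0.738 CPM against 0.152, 0.425 and 0.888. The log2 fold changes of these genes at 11 days were -0.18 ± 0.26, -0.37 ± 0.40 and -0.13 ± 0.69, and their difference from 1 week was not tested. Ppm1j stood at 15.6 and 16.3 CPM in F/F against 11.3, 15.7 and 18.1 in +/+, at 0.082 ± 0.21 (edgeR adjusted p = 0.942). Lmna in the same libraries stood at 58.3 and 58.4 CPM in F/F against 52.1, 106 and 118 in +/+, overlapping, at -0.67 ± 0.30 on the log2 scale (edgeR adjusted p = 0.558). For H2af-ps2 and Selenbp2 these 2 libraries stand apart from the F/F libraries of 1 and 2 weeks under the same genotype label. The source of this was not tested. For Gm42743 the lower of the 2, at 0.122 CPM, lay within the F/F range of 1 week, which reached 0.142. In the 20 QuantSeq hearts of 2 weeks, whose controls are F/+ and not +/+, Selenbp2 gave 3 reads in 10 F/+ and 2 in 10 F/F libraries and Gm42743 gave 2 in each set, so neither could be compared. H2af-ps2 ran from 0.738 to 1.47 CPM in F/+ and from 0.682 to 1.29 in F/F hearts with cGas (log2 fold change -0.21 ± 0.30, edgeR adjusted p = 0.749). Without cGas it was at -0.71 ± 0.38 (edgeR adjusted p = 0.564). Ppm1j was at -0.10 ± 0.19 with cGas (edgeR adjusted p = 0.820) and at 0.014 ± 0.24 without (edgeR adjusted p = 0.993). QuantSeq reads lie at the 3' end, so its levels are not those of the NEBNext libraries.

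**Figure D2:**
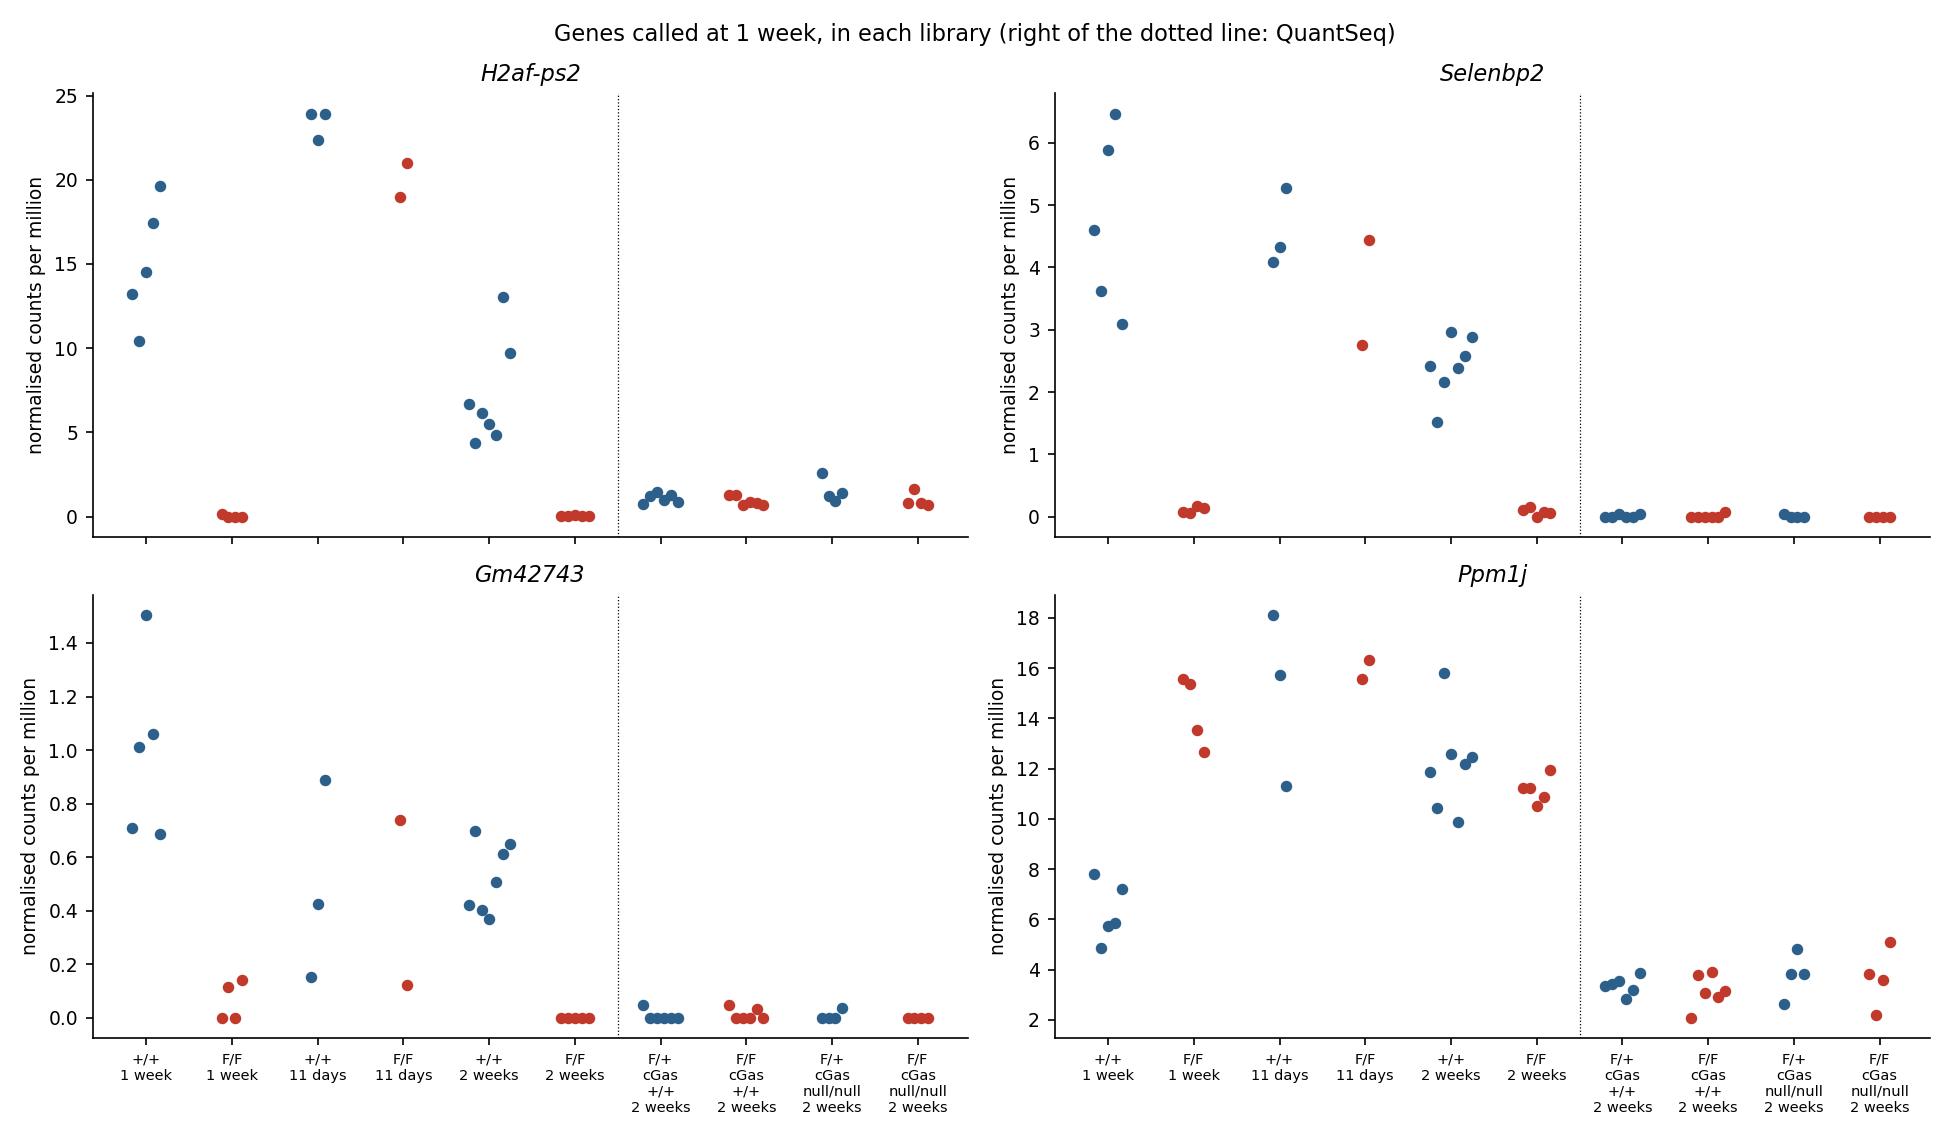
Levels of the 4 called genes in each library of the series, in normalised CPM, by group (blue, +/+ or F/+; red, F/F; right of the dotted line, QuantSeq). H2af-ps2 and Selenbp2 are near 0 in F/F hearts of 1 and 2 weeks and not in the libraries labelled F/F at 11 days, and Ppm1j separates the genotypes at 1 week.

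Lmna lies on chromosome 3, and so do 3 of the 4 called genes. By the gene order of GENCODE M21 (GRCm38), which matched 15594 of the tested genes, Selenbp2, Gm42743 and Ppm1j were 93, 152 and 223 tested genes from Lmna, all on the same side. H2af-ps2 is on chromosome 13. Of 767 tested genes of chromosome 3, 3 were called and 25 did not overlap between the groups (3.26%), against 1 called and 401 not overlapping (2.699%) of 14860 on other chromosomes. In steps of 100 tested genes, the second step on that side, which holds Gm42743, had 7 genes that did not overlap. The other steps on that side had 4, 3, 4 and 1 in order, and those on the other side 2, 3 and 0. An unadjusted p under 0.05 was found for 9.13% of chromosome 3 genes and 9.89% of the others. Among the direct neighbours Pmf1, Slc25a44 and Sema4a on one side and Lamtor2, Mex3a and Ubqln4 on the other, 0 were called. Lamtor2, a subunit of the Ragulator complex of lysosomes, was lower without overlap (log2 fold change -0.23 ± 0.11, edgeR adjusted p = 0.507). The values of the others ran from 0.15 ± 0.29 for Sema4a to 0.71 ± 0.57 for Mex3a.

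**Figure D3:**
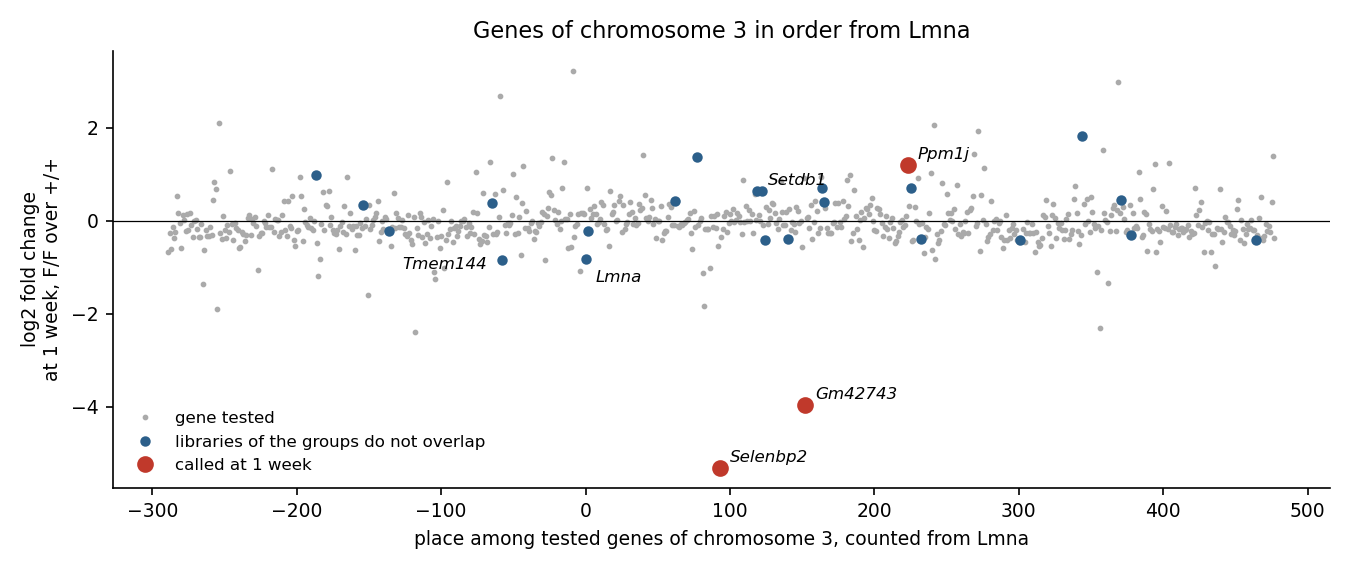
Log2 fold change of F/F over +/+ at 1 week for the 767 tested genes of chromosome 3, by their place in gene order from Lmna at 0. Red points are the 3 called genes and blue points genes whose libraries do not overlap between the groups, and Selenbp2 and Gm42743 lie far below the rest.

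A pair of other genes of chromosome 3 had values of like size at 1 and 2 weeks, but not in all other groups. Both were named for a small p at 1 week and are among the 25 genes of chromosome 3 that did not overlap. A pair picked in this way shows no pattern of the chromosome. Tmem144, a membrane protein gene 58 tested genes from Lmna on the side away from Selenbp2, stood at 31.0, 34.9, 44.1 and 32.1 CPM in F/F and 46.0, 71.1, 63.2, 70.3 and 54.7 in +/+. Its libraries did not overlap, and the log2 fold change was -0.85 ± 0.17 at 1 week (edgeR adjusted p = 0.137) and -0.76 ± 0.15 at 2 weeks (edgeR adjusted p = 0.000656). Setdb1, a histone H3 lysine 9 methyltransferase gene 119 tested genes from Lmna, stood at 8.98, 10.05, 9.15 and 7.36 CPM in F/F and 5.58, 4.58, 5.20, 6.36 and 6.77 in +/+, again without overlap. Its log2 fold change was 0.64 ± 0.15 at 1 week (edgeR adjusted p = 0.275) and 0.55 ± 0.13 at 2 weeks (edgeR adjusted p = 0.00217). At 11 days Tmem144 was at -0.48 ± 0.23 and Setdb1 at -0.17 ± 0.20. In the QuantSeq hearts with cGas they were at -0.16 ± 0.19 and -0.023 ± 0.23. Neither passed at 1 week in the edgeR fit, and DESeq2 called both.

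Tmem144 and Setdb1 belong to the uncalled genes with the smallest p at 1 week, whose values follow without a claim of change. With positive log2 fold changes these were Unc45a, a myosin chaperone, at 0.75 ± 0.16, Armc7 at 1.22 ± 0.27, Arhgef15, an endothelial guanine nucleotide exchange factor, at 0.83 ± 0.19, Setdb1, Pik3r6 at 0.76 ± 0.18 and Dop1b at 0.74 ± 0.17. With negative ones these were Tmem144, Mme (neprilysin) at -1.10 ± 0.26, Sgcd, a sarcoglycan of the muscle membrane, at -0.56 ± 0.14, Bnip3, a mitophagy receptor, at -0.66 ± 0.16, Fbxo8 at -0.44 ± 0.11 and Zfp277 at -0.48 ± 0.12. Their adjusted p ran from 0.137 to 0.312 in edgeR. The groups overlapped for Arhgef15 and Mme alone among the 12, whereas 1.7% of all genes were higher and 1.03% lower without overlap. The 12 were picked by their p in these same libraries, so the lack of overlap is no separate result. Arhgef15 ran from 19.7 to 29.5 CPM in F/F and from 11.0 to 20.4 in +/+, where +/+ replicate 1 was the highest.

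Gene lists were described at 1 week by the values of their members, and 0 of the 788 genes tested in the 48 lists were called by edgeR, against 0.0256% of all genes. By edgeR 69 of them (8.76%) had an unadjusted p under 0.05, against 9.85% of all genes. DESeq2 and limma-voom called 0, and edgeR without a filter on low counts called 14. Leaving out 1 library brought the median of 44 lists across 0 or moved it by over 1.5 times, and of these 19 crossed 0. The range with 1 library left out follows each median of 1 week in square brackets. The partners of lamin A/C at the nuclear envelope were bounded tightly. Of 18 lamina and inner nuclear membrane genes, 18 had a 95% interval within 2-fold, and the median log2 fold change was 0.028 [-0.0025 to 0.080]. The B-type lamins Lmnb1 and Lmnb2 were at 0.29 ± 0.29 and 0.26 ± 0.23, emerin (Emd) at -0.0093 ± 0.14, the lamin B receptor (Lbr) at 0.0082 ± 0.15, LAP2 (Tmpo) at -0.10 ± 0.15 and Banf1, which binds DNA and emerin, at -0.015 ± 0.13. Emd, for example, stood at 38.9, 37.8, 54.1 and 45.1 CPM in F/F and 39.0, 46.8, 43.6, 47.1 and 44.3 in +/+, and the groups overlapped. Fntb, the beta subunit of the farnesyltransferase that modifies prelamin A, had the smallest p of the list, at 0.40 ± 0.14 with F/F above +/+ in all libraries. The SUN and nesprin genes that tie the nucleus to the cytoskeleton had a median of 0.13 [0.052 to 0.20] over 10 genes, 9 of them within 2-fold. Sun1 was at 0.14 ± 0.16, Sun2 at 0.33 ± 0.15, Syne1 at 0.11 ± 0.22 and Syne2 at 0.068 ± 0.15. Nuclear pore genes had a median of 0.026 [-0.064 to 0.078] (15 of 16 within 2-fold), with Ndc1, a membrane anchor of the pore, of smallest p at -0.34 ± 0.14.

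ESCRT-III proteins reseal holes in the nuclear envelope. All 16 tested genes of this group had intervals within 2-fold, at a median of -0.11 [-0.13 to -0.077]. Chmp7, which starts the assembly at the inner membrane, was at 0.066 ± 0.14 and Chmp4b, its main filament subunit, at -0.042 ± 0.15. Cc2d1b, a regulator of that assembly, had the smallest p and was higher without overlap at 0.50 ± 0.15 (edgeR adjusted p = 0.345). Genes of cytosolic nucleic acid sensing, which include Cgas and Sting1, had a median of 0.13 [0.0023 to 0.12] over 18 genes, and 11 intervals lay within 2-fold. Sting1, the adaptor downstream of Cgas, stood at 11.3, 9.12, 14.4 and 10.8 CPM in F/F and 10.2, 9.58, 9.71, 7.81 and 10.5 in +/+, and Irf3, the transcription factor it activates, was at a log2 fold change of 0.23 ± 0.14. Interferon-stimulated genes had a median of 0.11 [0.020 to 0.24], with 21 of 36 above 0 and 3 higher without overlap (Oas2, Psmb9 and Parp14), against 49.3% and 1.7% of all genes. Ifit1 was at -0.0060 ± 0.30, Isg15 at 0.35 ± 0.40 and Stat2, of smallest p, at 0.55 ± 0.22. At 2 weeks 34 of the same 36 were called higher, against 16.2% of all genes, at a median of 1.16.

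Cytokine and chemokine genes had a median of 0.24 [0.094 to 0.30] at 1 week, with values from -1.85 to 1.41 and 7 of 26 intervals within 2-fold. Most are low here, so their levels were poorly bounded. Ccl2, which draws monocytes, stood at 3.56, 7.22, 10.9 and 4.32 CPM in F/F and 2.66, 2.56, 6.02, 5.41 and 2.98 in +/+, overlapping, at a log2 fold change of 0.69 ± 0.55. At 2 weeks it was at 4.42 ± 0.52. Cxcl12, a chemokine of stromal cells, had the smallest p of the list at 0.36 ± 0.17. The p53 targets had a median of 0.0049 [-0.042 to 0.12], with Cdkn1a, the cell cycle inhibitor, at 0.36 ± 0.33 and Mdm2, the ligase that degrades p53, at -0.39 ± 0.14. Mdm2 was lower without overlap at 1 week and was called higher at 2 weeks (0.45 ± 0.12, edgeR adjusted p = 0.00730), and the difference between the effects passed (edgeR adjusted p = 0.00548). Genes of the integrated stress response had a median of 0.17 [0.10 to 0.22], heat shock genes of -0.12 [-0.12 to -0.020] and NRF2 targets of -0.088 [-0.13 to -0.014]. Their members of smallest p were Shmt2 at 0.38 ± 0.14, Dnajb4 at -0.42 ± 0.20 and Nqo1 at -0.40 ± 0.16, and Gdf15, a stress cytokine, was at 1.16 ± 0.69.

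Immediate early genes, which answer stimuli before new protein is made, had the highest median of the pathway lists, 0.34 [0.26 to 0.45], with 20 of 24 above 0 and 2, Ier2 and Nr4a2, higher without overlap, against 49.3% and 1.7% of all genes. Fos was at 0.47 ± 0.49, Egr1 at 0.59 ± 0.50, Atf3 at 0.16 ± 0.55 and Jun, of smallest p, at 0.55 ± 0.23. Egr1 stood at 5.65, 5.89, 7.32 and 6.87 CPM in F/F and 5.23, 2.68, 5.75, 3.51 and 4.36 in +/+, and one +/+ library lay within the F/F range. Genes that rise with MAP kinase activity had a median of 0.24 [0.069 to 0.34], lowest without +/+ replicate 5. Their values were 0.70 ± 0.25 for Phlda1, 0.27 ± 0.23 for Dusp6, -0.37 ± 0.59 for Dusp4 and 0.79 ± 0.58 for Etv4. Leaving out +/+ replicate 1, whose Phlda1 was the highest of its group, brought Phlda1 to 1.06 (edgeR adjusted p = 0.0293). YAP and mechanical load genes had a median of 0.16 [0.082 to 0.20], with Ccn2 at 0.40 ± 0.33 and Ajuba at 0.54 ± 0.23. Cardiomyocyte stress genes had a median of 0.29 [0.23 to 0.33], with 18 of 24 above 0. Their values lay on both sides of 0: the natriuretic peptide genes Nppa and Nppb were at 0.57 ± 0.49 and 0.25 ± 0.43, Ankrd1 at 0.31 ± 0.32 and Acta1, skeletal actin, at 1.03 ± 0.53, while Myh7, the slow myosin heavy chain, was at -0.90 ± 0.59. Nppb stood at 493, 573, 1210.0 and 382 CPM in F/F and 931, 562, 413, 536 and 484 in +/+, so that the spread within each group was wider than the difference of their means. At 2 weeks 14 of these 24 genes were called higher, against 16.2% of all genes, at a median of 1.05.

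**Figure D4:**
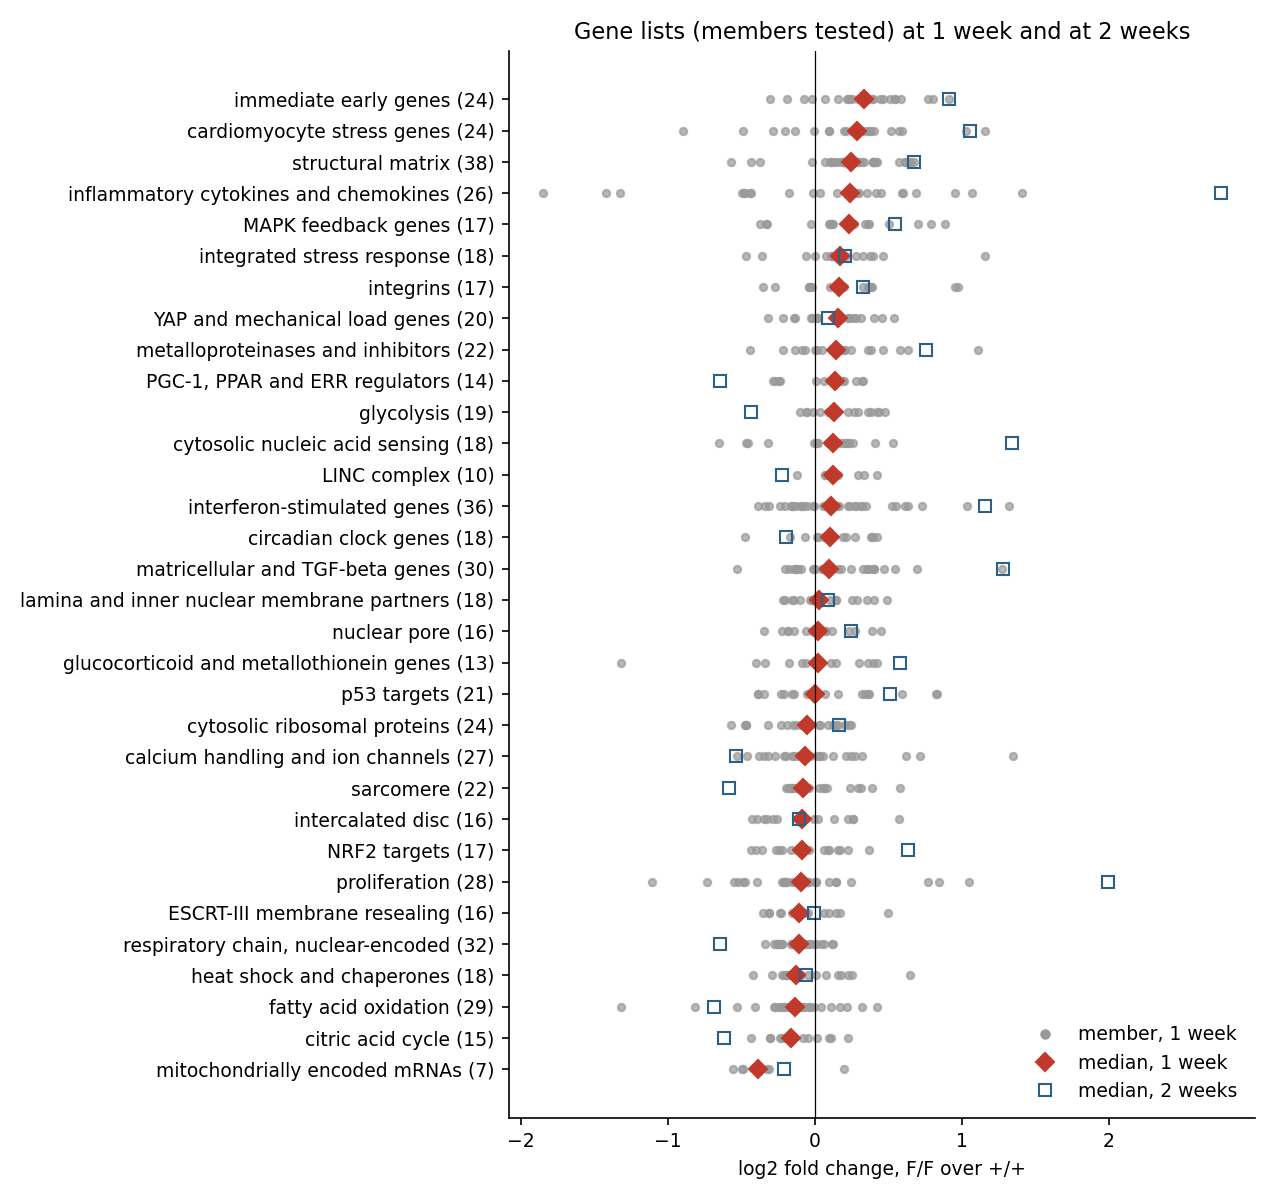
Log2 fold change of F/F over +/+ for the 32 pathway lists, with the number of members tested in brackets (grey points, members at 1 week; red diamonds, median at 1 week; blue squares, median at 2 weeks). Medians at 1 week lie between -0.38 and 0.34, and those of 2 weeks reach 2.76.

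Contractile genes were bounded tightly. All 22 sarcomere genes had intervals within 2-fold, at a median of -0.077 [-0.13 to 0.041], as had all 11 ventricular cardiomyocyte markers at -0.075 [-0.15 to -0.023] and all 16 intercalated disc genes at -0.087 [-0.19 to 0.017]. Myh6, the adult myosin heavy chain, was at 0.24 ± 0.20, Tnni3, cardiac troponin I, at -0.11 ± 0.16 and Pln, the inhibitor of the calcium pump of the sarcoplasmic reticulum, at -0.46 ± 0.20. Mybpc3, cardiac myosin-binding protein C, had the smallest p of the sarcomere list. It stood at 1884, 1819.8, 1905 and 1189 CPM in F/F and 1135, 1002, 1244, 1321 and 1024 in +/+, and F/F replicate 4 alone lay within the +/+ range (log2 fold change 0.58 ± 0.18, edgeR adjusted p = 0.345). At 2 weeks Mybpc3 was called lower (-0.99 ± 0.17), and the difference from 1 week passed (edgeR adjusted p = 0.00115). Jup, plakoglobin of the intercalated disc, was at 0.57 ± 0.16 and Hcn2, a pacemaker channel gene, at 0.72 ± 0.23. Calcium handling and ion channel genes had a median of -0.065 [-0.15 to 0.042].

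Energy metabolism showed small values at 1 week. The 32 nuclear-encoded respiratory chain genes all had intervals within 2-fold, with 5 above 0 and a median of -0.11 [-0.17 to -0.026]. At 2 weeks 31 of them were called lower, against 13% of all genes, at a median of -0.64. Fatty acid oxidation genes had a median of -0.13 [-0.24 to -0.059] and citric acid cycle genes of -0.16 [-0.25 to -0.081], against -0.68 and -0.62 at 2 weeks. On the deposited TPM, which moved the median of all genes to 0.13, the 1 week medians of the respiratory chain, sarcomere, citric acid cycle and fatty acid oxidation were above 0. Pdk4, the kinase that turns off pyruvate dehydrogenase, stood at 152, 122, 98.2 and 138 CPM in F/F and 162, 600.2, 128, 256 and 445 in +/+, overlapping, with 4 of the 5 +/+ libraries above all F/F libraries (log2 fold change -1.32 ± 0.43, edgeR adjusted p = 0.367). Ndufs1 of complex I was at -0.34 ± 0.18, Dld, shared by the pyruvate and oxoglutarate dehydrogenases, at -0.43 ± 0.20, Pfkl, liver phosphofructokinase, at 0.48 ± 0.16 and Esrra, a regulator of mitochondrial genes, at 0.28 ± 0.18. Glycolysis genes had a median of 0.13 [0.060 to 0.21], and clock genes of 0.10 [0.087 to 0.15], with Cry2 at 0.40 ± 0.18. Mitochondrially encoded mRNAs had the lowest median of the pathway lists, -0.38 [-0.63 to -0.22] over the 7 tested, with mt-Co1 at -0.49 ± 0.20 and mt-Nd1 at -0.56 ± 0.24. The lower end of that range was reached without F/F replicate 4, which had the highest mitochondrial share of its group, and the upper end without F/F replicate 3, which had the lowest. Cytosolic ribosomal protein genes had a median of -0.052 [-0.22 to 0.040], with Rpl13 at -0.47 ± 0.17.

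Matrix genes, which the title of the series names among later events, were described last among the pathways. Structural matrix genes had a median of 0.25 [0.16 to 0.47] at 1 week. Of 38 genes 34 were above 0, 21 had intervals within 2-fold and 1, Lamb2, was higher without overlap. The shares of all genes were 49.3%, 70.0% and 1.7%. Lamb2, the beta chain of laminins in the basement membrane, stood at 137, 109.6, 124 and 103 CPM in F/F and 101, 70.9, 102, 94.99 and 74.2 in +/+ (log2 fold change 0.43 ± 0.13, edgeR adjusted p = 0.345). Col1a1 and Col3a1, the fibrillar collagens, were at 0.41 ± 0.46 and 0.23 ± 0.37, and their libraries overlapped: Col1a1 stood at 141, 103, 66.4 and 82.5 CPM in F/F and 114, 42.5, 78.1, 67.8 and 69.9 in +/+. The median of the list was lowest without F/F replicate 1 and highest without +/+ replicate 1. Matricellular and TGF-beta genes had a median of 0.10 [0.050 to 0.21]. Tnc, tenascin C of injured tissue, was higher without overlap but low, at 2.09, 0.809, 1.22 and 0.849 CPM in F/F and 0.532, 0.535, 0.547, 0.614 and 0.229 in +/+ (log2 fold change 1.27 ± 0.92, edgeR adjusted p = 0.648). Postn was at 0.093 ± 0.50 and Ltbp4 at 0.47 ± 0.31. Metalloproteinases and their inhibitors had a median of 0.15 [0.058 to 0.25], with Adam19 at 0.64 ± 0.24, and integrins of 0.17 [0.10 to 0.29], with Itga7, the laminin receptor subunit of muscle, higher without overlap at 0.39 ± 0.15.

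Markers of the cell types of the heart were read in the same way. Endothelial markers had a median of 0.29 [0.11 to 0.49], lowest without +/+ replicate 2 and highest without +/+ replicate 1, and summed to 1521 to 1744 CPM in F/F and 1376 to 2125 in +/+. Cldn5, a tight junction protein, was higher without overlap at 0.63 ± 0.21 (edgeR adjusted p = 0.372), Kdr was at 0.51 ± 0.23 and Pecam1 at -0.11 ± 0.17, so the values lay on both sides of 0. Macrophage and monocyte markers had a median of -0.012 [-0.086 to 0.075], with 23 of 25 intervals within 2-fold, and summed to 857 to 967 CPM in F/F and 697 to 1137 in +/+. At 2 weeks 23 of them were called higher, against 16.2% of all genes. Resting fibroblast markers had a median of 0.065 [-0.042 to 0.22] (Dcn at -0.37 ± 0.19), activated fibroblast markers of -0.0074 [-0.24 to 0.17] and smooth muscle and pericyte markers of 0.077 [-0.0024 to 0.24] (Mcam at 0.48 ± 0.20). Proliferation genes had a median of -0.091 [-0.27 to 0.064] (Rrm2 at -0.52 ± 0.28). At 2 weeks their median was 2.00, and 27 of 28 were called higher, against 16.2% of all genes. Lymphocyte and neutrophil markers were low, and summed to 8.21 to 10.5 CPM in F/F and 5.86 to 15.7 in +/+ for lymphocytes and to 2.87 to 10.1 CPM in F/F and 4.64 to 8.83 in +/+ for neutrophils, in which Ly6g was at 0 in all 9 libraries.

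Markers of tissue that varies with dissection differed between single libraries. Atrial cardiomyocyte markers had a median of 0.67 [0.15 to 0.83], with 8 of 8 above 0, and summed to 249.9 to 909 CPM in F/F and 119 to 658 in +/+, and Nppa is one of them. Their median was lowest without F/F replicate 4. Conduction system markers had a median of 0.67 [0.29 to 1.02], lowest without F/F replicate 1 and highest without F/F replicate 3, and of 0.043 in the males, over 5 tested genes (Tbx3 at 0.90 ± 0.37; Isl1 at 0 in all libraries) and summed to 5.77 to 11.5 CPM in F/F and 3.81 to 10.4 in +/+. Scgb1a1, a lung airway gene, reached 90.7 CPM in +/+ replicate 5, where the other 8 libraries held at most 6.12. Adipocyte, red blood cell and mesothelial markers had medians of -0.49 [-0.91 to 1.42], -0.21 [-0.45 to 0.35] and -0.17 [-0.48 to 0.036], and a single library turned the sign of each: +/+ replicate 4 for adipocyte markers and +/+ replicate 1 for the other two. Medians of nerve and skeletal muscle markers were 0.34 [0.19 to 0.56] and 0.034 [-0.062 to 0.18]. The part of these tissues in the values above was not tested, and the 4 called genes were in none of the marker lists.

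The genes that differed at 2 weeks were then read at 1 week in the separate libraries of that time. The 2537 genes called higher at 2 weeks had a median log2 fold change of 0.020 at 1 week, and 52.3% were above 0, against -0.0048 and 49.3% of all genes tested. Of them 49 were higher without overlap (1.93%), next to 1.7% of all genes, and 13 were lower without overlap (0.512%), next to 1.03%. By edgeR 0 were called at 1 week and by DESeq2 2. An unadjusted edgeR p under 0.05 was found for 165 of them (6.50%), against 9.85% of all genes. A gene could pass the filter through its F/F libraries of 2 weeks alone. With few reads at 1 week it could then hardly be called or separate the groups. These shares therefore do not show that the genes were unchanged at 1 week. The 1437 that were higher by over 2-fold had a median of 0.076 and the 163 higher by over 8-fold one of 0.029. Intervals lay within 2-fold at 1 week for 58.9% of the 2537, 33.3% of the 1437 and only 4 of the 163. The share of all genes tested was 70.0%. In the genes without such an interval small differences could not be seen, and a change of over 2-fold was not excluded. The 2025 genes called lower at 2 weeks had a median of 0.0071 at 1 week, and 3 of them were called: H2af-ps2, Selenbp2 and Gm42743. Without overlap 45 of the 2025 were higher (2.22%) and 36 lower (1.78%) at 1 week, next to 1.7% and 1.03% of all genes. The effects of the 2 times differed at 1938 genes (12.4%) in edgeR, and at 1235 without F/F replicate 1 and 1209 without F/F replicate 3.

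Most of the genes with the largest rises at 2 weeks had little RNA in either group at 1 week, and Timp1 was the highest of those given here. They were picked by that rise, which favours genes low in hearts without it. Their low levels at 1 week are therefore no separate result. Timp1, an inhibitor of metalloproteinases, stood at 5.34, 5.20, 5.38 and 5.59 CPM in F/F and 5.05, 3.21, 2.87, 5.97 and 6.31 in +/+. Its log2 fold change was 0.20 ± 0.59 at 1 week and 5.85 ± 0.55 at 2 weeks, and the difference passed (edgeR adjusted p = 0.00110). Spp1, osteopontin, stood at 0.232, 0.231, 0.166 and 0.991 CPM in F/F and 0.266, 0.119, 0.684, 0.167 and 0.688 in +/+, with 7.12 ± 0.73 at 2 weeks (difference, edgeR adjusted p = 0.0215). Sprr1a ran from 0.0578 to 0.277 CPM in F/F and from 0 to 0.573 in +/+, Il1rn, the interleukin 1 receptor antagonist, from 0.0775 to 0.462 and 0 to 0.709, and Clec4e, Arg1 and Crabp2 held at most 3 reads in any library. The level of Gm42743 lay below a mean log2 CPM of 0. Of the 4 genes above that level with the largest called falls at 2 weeks, Gm3235 and Clec18a stood at log2 fold changes of 0.19 ± 0.39 and 0.27 ± 0.44 at 1 week, whereas the other pair, H2af-ps2 and Selenbp2, were called at both times.

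**Figure D5:**
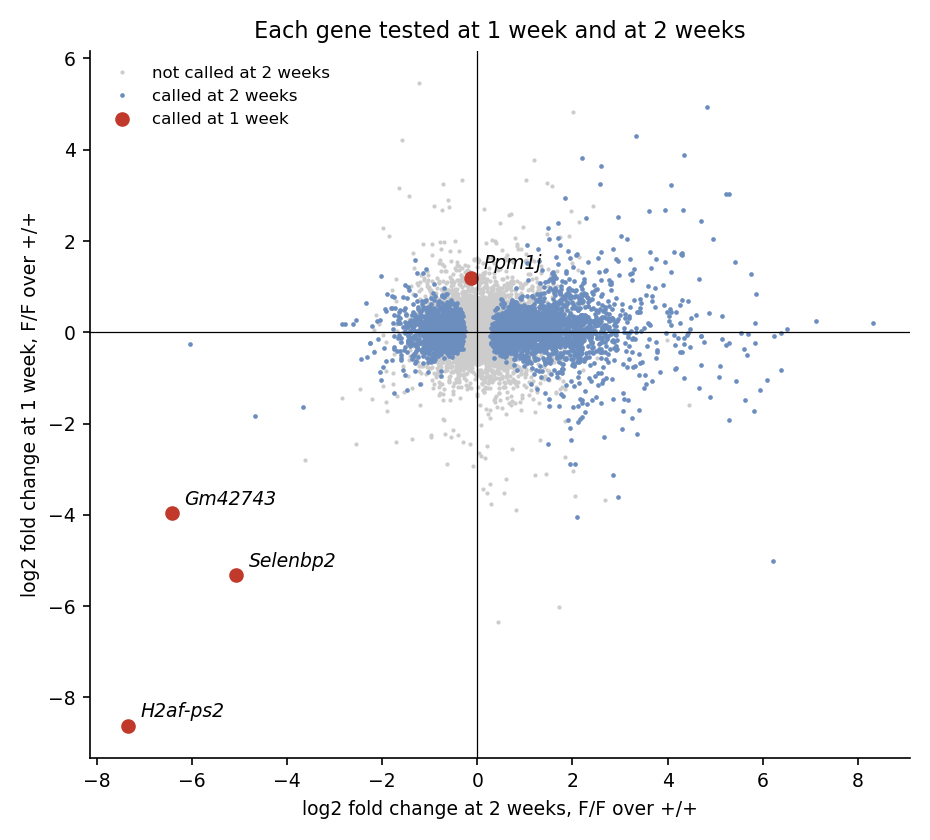
Log2 fold change of F/F over +/+ at 1 week (y axis) and at 2 weeks (x axis) for each of 15627 genes, with genes called at 2 weeks in blue and the 4 called at 1 week in red. Genes called at 2 weeks spread on both sides of 0 at 1 week, and H2af-ps2, Selenbp2 and Gm42743 lie at the lower left.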

How the data were processed

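RNA-seq of adult mouse hearts was deposited as 1 table of counts per gene and 1 of TPM. The deposited counts are whole reads per gene that the authors had not normalised, and the deposited TPM are the authors' values scaled by transcript length and depth. Per the submitters' processing notes, the aligner was STAR 2.7.9 and the build mm39. How reads were counted, on which annotation, with or without strand and with which rule for several matches, the sources used here do not give.

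All 26 NEBNext libraries of the time course were fitted together in R 4.3.3 with edgeR 4.0.16 (TMM scaling, filterByExpr with a minimum count of 10 and total of 15, quasi-likelihood test, Benjamini-Hochberg adjustment over 15627 of 55359 genes). The groups were genotype and time, with sex, and with sequencing pool within 2 weeks, as covariates. QuantSeq libraries had a fit of their own. CPM were computed here from the deposited counts, and single genes were also tested by exact permutation of libraries. Intervals of read ratios cover counting error only. Alternatives used DESeq2 1.42.0 and limma 3.58.1 (voom, and limma-trend on log2 of the deposited TPM plus a pseudocount of 1 or 0.1, with a mean TPM of at least 0.5).

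The counts of any pair of libraries in a group differed by at least 9.58 times the sampling noise (chi-square per degree of freedom). None is therefore a copy of another, which does not show that they came from separate mice. Each library was counted as 1 sample. Precision depends on this spread between libraries as well as on the totals, the lowest being 8477358 reads. The fitting code was tested on simulated counts.

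Named genes were Lmna and Cgas, all called genes, the 6 higher and 6 lower uncalled genes of smallest p, the 8 higher and 4 lower called genes of largest change at 2 weeks with a mean log2 CPM above 0, the member of smallest p in each list, sentinels, and neighbours of Lmna. Oas2, Psmb9, Parp14, Ier2 and Nr4a2 were named after their values were seen. The groups and the gene lists were chosen with earlier results of these data known. Of 823 list symbols 822 matched the table. The reference annotation (GENCODE M21) is of another build, so genes were placed by their order from Lmna in steps of 100 in place of the distance planned, and no coordinates are given.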

Additional observations from a re-analysis of the deposited data

Results flagged for a closer look

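The highest or lowest library of its group stood far from the others, by Dixon's criterion, in 24 of the 236 pairs of a named gene and a group at 1 week (10.2%), where chance gives about 1 in 20. The values are in normalised CPM. In +/+ replicate 1 this was Hcn2 at 18.3 (others 8.37 to 10.3), Myh6 at 6196 (others 8593 to 9216), Hbb-bt at 192 (others 54.4 to 86.2), Col3a1 at 367 (others 168 to 185), Nppb at 931 (others 413 to 562) and Sema4a at 7.18 (others 2.98 to 3.69). In +/+ replicate 4 this was Adipoq at 4.46 (others 0.344 to 0.821). In +/+ replicate 5 this was Scgb1a1 at 90.7 (others 0.547 to 4.96), Gdf15 at 0.688 (others 0.223 to 0.357), Tnc at 0.229 (others 0.532 to 0.614) and Pmf1 at 22.9 (others 16.4 to 17.8). In F/F replicate 1 this was H2af-ps2 at 0.155 (others all 0), Cc2d1b at 11.0 (others 8.49 to 8.76), Tbx3 at 4.96 (others 2.41 to 2.83), Esrra at 106 (others 66.4 to 71.3), Chmp7 at 42.1 (others 31.0 to 32.2) and Syne1 at 41.7 (others 23.5 to 25.98). In F/F replicate 2 this was Scgb1a1 at 6.12 (others 0.0775 to 0.708). In F/F replicate 3 this was Crabp2 at 0.111 (others all 0). In F/F replicate 4 this was Mybpc3 at 1189 (others 1819.8 to 1905), Rpl13 at 57.9 (others 30.1 to 32.1), Adam19 at 10.1 (others 15.7 to 16.1), Lmnb2 at 2.48 (others 4.10 to 4.22) and Spp1 at 0.991 (others 0.166 to 0.232).

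The effect of the genotype differed between 1 and 2 weeks, by the edgeR test of the difference itself, for 43 of the 118 named genes, next to 12.4% of all genes. Some of these were named for their size at 2 weeks and others for a small p at 1 week. Both choices favour a difference between the weeks, so the 2 shares are not alike. The effect was more positive at 1 week, with the difference on the log2 scale, for Gm3235 (3.05), Clec18a (2.83), Esr1 (1.66), Hcn2 (1.62), Mybpc3 (1.57), Arhgef15 (1.48), Ppm1j (1.34), Kdr (1.16), Myh6 (1.10), Cldn5 (1.07), Esrra (1.07), Selenbp1 (1.06), Pfkl (1.03), Pik3r6 (0.90), Cry2 (0.87), Lamb2 (0.84), Tnni3 (0.83), Jup (0.75), Unc45a (0.71), Sun2 (0.62) and Shmt2 (0.61). It was more negative at 1 week for Sprr1a (-8.10), Clec4e (-7.12), Spp1 (-6.88), Il1rn (-6.16), Timp1 (-5.65), Ly6c2 (-4.73), Tnc (-4.49), Ccl2 (-3.73), Postn (-2.98), Rrm2 (-2.19), Nkg7 (-2.19), Fos (-2.18), Cgas (-2.13), Col3a1 (-1.88), Pdk4 (-1.77), Ifit1 (-1.60), Sting1 (-1.39), Dcn (-0.97), Sgcd (-0.92), Dnajb4 (-0.85), Mdm2 (-0.84) and Zfp277 (-0.53).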

How the results depend on the processing

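No named gene was called in opposite directions in any of the alternatives run. Of 2793 values of named genes at 1 week 12 lost a call and 32 gained one. Another 2573 kept a call and its direction, or stayed uncalled within the SE of the main value, whatever their sign. The remaining 176 moved by more than that SE without a change of call. Uncalled values near 0 could change sign, such as Nppb, which ran from -0.23 to 0.60. The number of genes called at 1 week, 4, became 2 with the libraries of 1 week alone (Gm42743 and Ppm1j lost), 109 with no filter on low counts, 20 by DESeq2 and 45 by DESeq2 without a filter, and the cause was not tested. With the 6 males it was 5, all lower, 2 of them among the 4. Leaving out 1 library gave 3 to 9 calls at 1 week, and 1209 to 2028 genes whose effects at 1 and 2 weeks differed, against 1938. H2af-ps2 and Selenbp2 were called in 25 of 25 fits each, Ppm1j in 23 of 25, Gm42743 in 11 of 21 (it did not pass the filter in the others) and Lmna in 1 of 25. Lmna in F/F was 0.564 times its +/+ level, 0.624 on library totals and 0.638 on TPM.

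The median log2 fold change of all genes was 0.15 without scaling factors and 0.13, 0.18 and 0.10 on TPM (pseudocount 1, 0.1, and 1 with no filter), and list medians near 0 change sign with it. Of 1223 list medians 108 moved by more than the spread between libraries. An alternative chosen after seeing the data scaled the summed reads by library totals, which made H2af-ps2 412, Selenbp2 38.6 and Gm42743 13.8 times lower. The median of mitochondrially encoded mRNAs is not given with those genes left out. No paired analysis was possible because the labels give each library a number of its own. Depth limits the lowest genes most: Gm42743, most of the leading genes of 2 weeks and many cytokines rest on few reads.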
